A study of Mus musculus with 6 samples.

Results

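The region described here is the single copy of the 45S ribosomal RNA gene, Rn45s, that build mm9 of the mouse genome places on chromosome 17, from 39979942 to 39985774. It is defined by its coordinates and is 1 region of 5833 bp among the 452928 tiles of that length that cover chromosomes 1 to 19, X and Y. The series holds 6 libraries of DNA from C57Bl/6 mouse embryonic stem (ES) cells, cultured in leukaemia inhibitory factor without a feeder layer and, as far as the labels say, otherwise untreated. They are 1 library of H2A.B chromatin immunoprecipitation (ChIP) made with a rabbit antibody raised by the submitters, 1 IgG ChIP library made with rabbit IgG, 3 libraries of methylated DNA immunoprecipitation (MeDIP) made with a mouse antibody against 5-methylcytosine (5mC, clone 33D3), and 1 IgG MeDIP library made with mouse IgG. H2A.B, also called H2A.Bbd, belongs to the shorter histone H2A variants, and the IgG libraries measure what is recovered without a specific antibody. For both IgG libraries the description names the H2A.B antibody, while title and antibody field give IgG, which was used. Whether the 5mC replicates are different cultures is not given in the labels, and their spread may be technical. The other 3 groups had no replicate.

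As background, the 45S gene is transcribed in the nucleolus by RNA polymerase I into a long precursor, which begins with an external spacer and is cut into the 18S, 5.8S and 28S ribosomal RNAs. Mammalian cells carry the gene in many tandem copies, of which some are transcribed and others are silent and carry methylated CpG sites. Genome assemblies leave out nearly all of these tandem copies, so reads from the whole family can fall on the few sequences that were assembled. A read count at Rn45s is therefore a value for the family as far as its reads matched this copy, and the number of gene copies and the recovery per copy cannot be told apart.

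The copy on chromosome 17 is short, and no mm9 annotation was used here to divide it into spacer and RNA parts. RefSeq's gene table for the later assembly GRCm38.p6 holds no entry named Rn45s. On chromosome 17 it lists Rn18s-rs5, a pseudogene of 1849 bp related to the 18S RNA. It also lists there AY036118, a long noncoding RNA of 50274 bp, and 1 gene of the type ribosomal RNA. Its entry for the 28S RNA, Rn28s1, is 420 bp long and on another chromosome. The positions of these entries were not compared with the mm9 copy. No 28S part of the mm9 copy was placed here, and positions are given below as the distance in bp from the first base of the copy, counted from 1.

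Depth and sequencing run differed between the libraries. The totals on chromosomes 1 to 19, X and Y ran from 193479 deposited reads in IgG MeDIP to 9263298 in H2A.B ChIP, of which 39.9% to 86.9% lay at distinct positions (chromosome, 5′ end and strand). H2A.B and 5mC replicate 1 had 42 bp reads from lane 3 of one flow cell, 5mC replicate 2 and IgG MeDIP had 50 bp reads from lane 1 of another, and 5mC replicate 3 and IgG ChIP had 50 bp reads from lane 2 of the latter. All read names of each list carried the same flow cell and lane. The lists with 42 bp reads held no read on unplaced contigs, which took 2.27% to 3.83% of the lists with 50 bp reads. Antibody, flow cell and read length therefore cannot be told apart between H2A.B and IgG ChIP, and the part of reads matching both Rn45s and an unplaced contig was not tested.

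Reads were abundant on the copy and stopped at its borders in every library. Rn45s held 6639 distinct reads in the H2A.B library, 581 in the IgG ChIP library, 1368, 429 and 617 in 5mC replicates 1, 2 and 3, and 12 in IgG MeDIP. The 2 flanks, chromosome 17 from 39900001 to 39970000 and from 40000001 to 40070000, are together 140000 bp long. They had 215 distinct reads with H2A.B, 20 with rabbit IgG, 25, 32 and 26 with 5mC and 1 with mouse IgG. Per kb, Rn45s stood 741-fold above its flanks in H2A.B (95% exact interval 647 to 853), 697-fold in IgG ChIP (447 to 1150), and 1313-fold (886 to 2037), 322-fold (225 to 476) and 570-fold (385 to 879) in 5mC replicates 1, 2 and 3. With deposited reads the fold was 1506 (1320 to 1726) in H2A.B and 826 (541 to 1326) in IgG ChIP. At equal depth, described below, it was 1477 and 764, as expectations without intervals. The values of these 2 libraries were thus close for distinct reads at full depth and further apart in the other settings. The intervals with deposited reads still overlap slightly, and the IgG ChIP flanks held 22 deposited reads. Replicate 2 stood at 162-fold without the last block of its list, also described below. In IgG MeDIP, where the flanks rest on 1 read, the ratio was 288 (42.6 to 12312). These intervals cover counting error only, since reads amplified by PCR without molecular identifiers are not independent molecules. The step was as steep as the windows could show: H2A.B had 1216 distinct reads in the first 1000 bp of the copy and 4 in the 1000 bp before it, and 1194 in the last 1000 bp and 3 in the 1000 bp after it. Both IgG libraries stood far above the flanks as well.

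**Figure D1:**
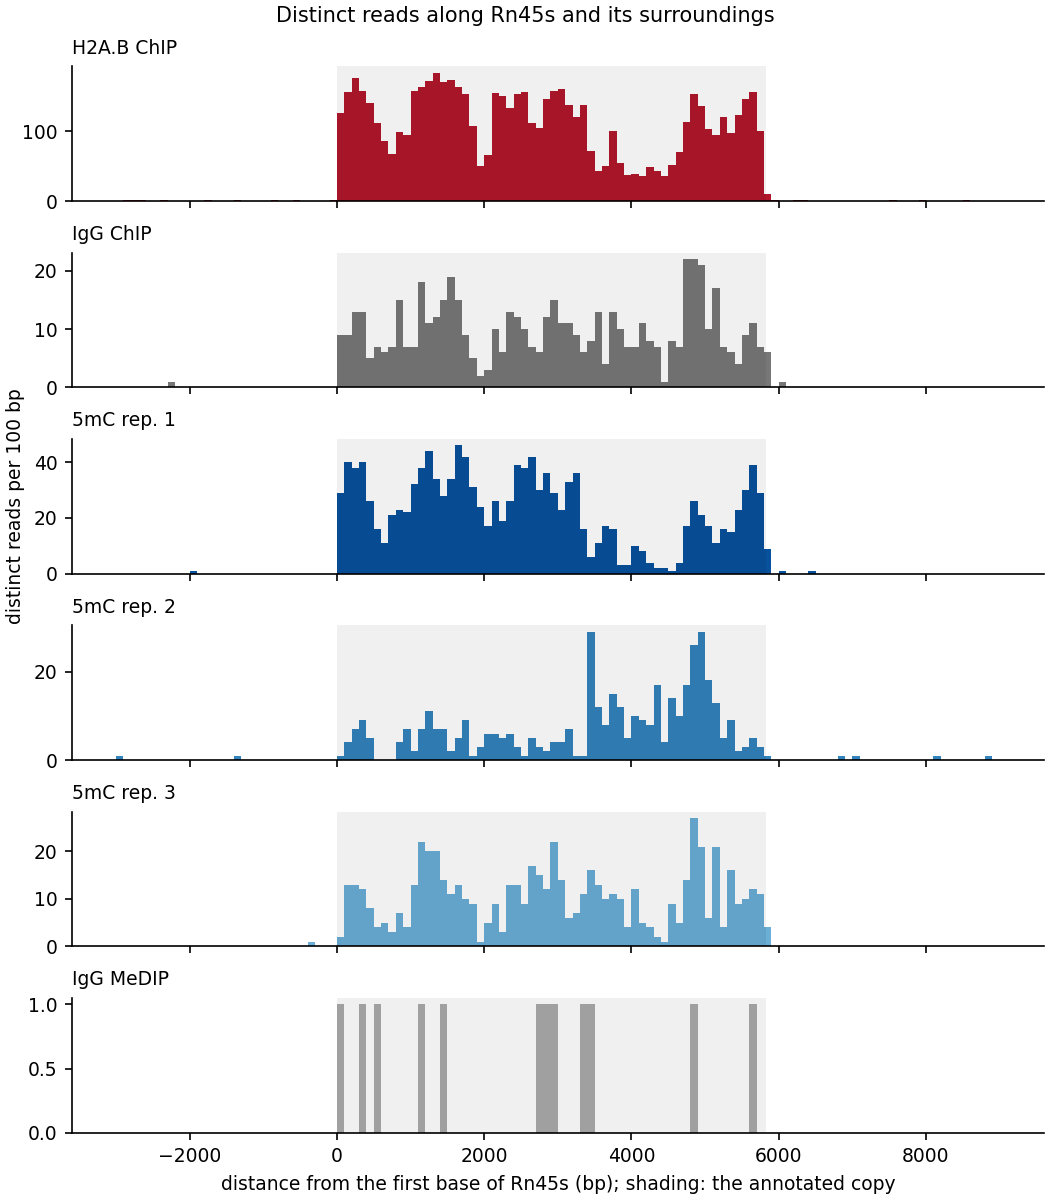
Distinct reads in windows of 100 bp (vertical axes, each library on its own scale) against the distance from the first base of Rn45s in bp, with the annotated copy shaded. Reads fill the shaded copy in the 5 deeper libraries, with 4 or fewer in the 1000 bp on either side, and IgG MeDIP has 12 reads in all.

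Among tiles of the same length Rn45s was one of the most heavily covered places of the genome. By distinct reads it ranked first of 452928 tiles in H2A.B, where the median tile held 16. It ranked 9th in 5mC replicate 1, 5mC replicate 3 and IgG ChIP, 12th in 5mC replicate 2 and 127th in IgG MeDIP. By deposited reads it ranked 11th in H2A.B, 13th in IgG ChIP, 17th in 5mC replicates 1 and 3, 115th in 5mC replicate 2 and 195th in IgG MeDIP.

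As a share of each library's distinct reads at full depth, Rn45s was highest in IgG ChIP and lowest in IgG MeDIP. The level was 1077 per 1000000 distinct reads (CPM; 95% exact interval 992 to 1169) in IgG ChIP and 824 (805 to 844) in H2A.B. For 5mC, replicates 1, 2 and 3 gave 979.3 (928 to 1033), 227 (206 to 249) and 768 (708 to 831), and in IgG MeDIP it was 96.7 (49.9 to 169). A count of 0 would allow up to 24.2 CPM in IgG MeDIP, so the copy was detected there. The order IgG ChIP, 5mC replicate 1, H2A.B, 5mC replicate 3, 5mC replicate 2, IgG MeDIP had no neighbours with overlapping intervals other than IgG ChIP with 5mC replicate 1 and H2A.B with 5mC replicate 3.

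Counting all deposited reads changed this order. H2A.B then stood highest, at 1525 CPM (1499 to 1550), followed by IgG ChIP at 957 (890 to 1027), 5mC replicates 3 and 1 at 599 (560 to 639) and 573 (548 to 599), 5mC replicate 2 at 128 (117 to 139) and IgG MeDIP at 72.4 (39.6 to 121). The copy offers 11666 positions (5833 bp on 2 strands), and H2A.B used 56.9% of them, against 3.68% to 11.7% in the 5mC libraries, 4.98% in IgG ChIP and 0.103% in IgG MeDIP. Only 47.0% of the H2A.B reads in Rn45s were at distinct positions, against 86.9% in the whole library. In 5mC replicate 1 the opposite held, with 68.1% distinct in Rn45s and 39.9% in the library. The H2A.B reads were spread over the copy and not piled on a few bases: the highest position held 11 reads and the 10 highest together 0.673% of the reads. In 5mC replicate 3 a single position, the minus strand at 328 bp, held 39 reads. When every library was reduced to the 193479 reads of the smallest by the expectation of a random draw, and positions then counted once, H2A.B stood at 1570 CPM, IgG ChIP at 1076, 5mC replicates 1, 2 and 3 at 1007, 182 and 756, and IgG MeDIP at 96.7.

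**Figure D2:**
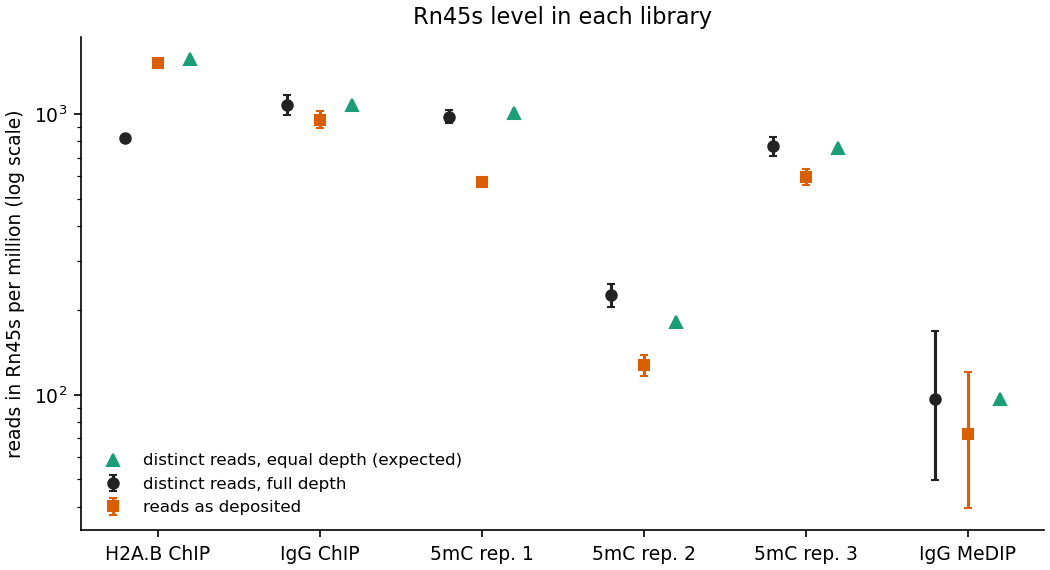
Reads in Rn45s in CPM (log axis) in each library, as distinct reads at full depth, reads as deposited, and distinct reads at equal depth; bars are 95% exact intervals of the counts, and the equal-depth value is an expectation without a bar. H2A.B moves from 824 with distinct reads to 1525 and 1570 with the others, while IgG ChIP stays between 957 and 1077.

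The first comparison asked whether H2A.B lay on the ribosomal gene above the IgG background. Its direction depended on how repeated positions were counted and on the depth. With the flanks as reference, the distinct-read value at full depth was near 1. With distinct reads at full depth H2A.B stood at 0.765 times IgG ChIP (95% exact interval 0.703 to 0.834). With deposited reads it stood at 1.59 times (1.48 to 1.72). At equal depth the ratio of distinct reads was 1.46, and at the depth of IgG ChIP it was 1.40. At full depth H2A.B used 56.9% of the copy's positions and IgG ChIP 4.98%, and the part of this in the ratio was not tested. As a fold over the flanks the distinct-read ratio at full depth was 1.06. This value rests on 20 IgG ChIP flank reads, the fold intervals of both libraries overlap, and it cannot be told from 1. The value was below 1 for distinct reads at full depth with the library or chromosome 17 (0.659) as the total, and above 1 in the other settings tried. Each group had 1 library, and no test was made: the spread between libraries is known here for the 5mC libraries alone, which come from the other assay.

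The ratio was also set beside those of other tiles. By a rule of size (ratio of at least 1.5 with the 95% exact bound past 1), Rn45s was called in neither direction with distinct reads, where 0.0851% of 375861 tiles were called higher in H2A.B and 1.90% higher in IgG ChIP. With deposited reads Rn45s was called higher in H2A.B, as were 0.626% of 381452 tiles, while 4.63% were called higher in IgG ChIP. A call needs many reads, and most tiles hold few. On simulated distinct-read counts the rule called 4468 unchanged tiles higher in IgG ChIP and 52 higher in H2A.B. Calls in the 2 directions are therefore not equally likely at these depths. The ratio itself was exceeded by 67.4% of the tiles with distinct reads and by 46.2% with deposited reads. Rn45s thus lay below the middle of the tiles by the former and near it by the latter. The median tile held 1 distinct read in IgG ChIP, so many tile ratios rest on few IgG reads or none. These percentages therefore cannot tell whether the size of the ratio at Rn45s was unusual.

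Along the copy this ratio was uneven. In successive parts of 1000 bp from the start it was 0.895, 0.885 and 0.952 with distinct reads and 1.96, 2.03 and 2.02 with deposited reads. It was lowest from 4001 to 5000 bp, at 0.427 (95% exact interval 0.350 to 0.525) with distinct reads, 0.749 (0.629 to 0.896) with deposited reads and 0.647 with both libraries at the depth of IgG ChIP. This stretch stood below 1 in each of these settings, and at 5001 to 5833 bp the 3 values were again higher, at 0.828, 1.5 and 1.45. Over the 59 windows of 100 bp the distinct-read ratio ran from 0.112 to 2.41 with a median of 0.859. The 3 highest windows started at 4401, 5401 and 401 bp, with ratios of 2.41, 2.06 and 1.89, and their intervals all included 1, with IgG ChIP at 1, 4 and 5 reads. With deposited reads the median window stood at 1.85 and the range was 0.114 to 4.97, so the median moved from below 1 to above it with the counting. The same 3 windows then stood at 3.84 (0.656 to 155), 3.95 (1.67 to 12.3) and 4.97 (2.26 to 13.6). The latter 2 intervals exclude 1, but the windows were picked as the highest by distinct reads, so this is a description. The interval from 1.67 to 12.3 includes the median window's 1.85. The 3 lowest by distinct reads were the last window, of 33 bp, at 0.112 (0.0368 to 0.374), and those starting at 4101 and 3501 bp, at 0.219 (0.109 to 0.477) and 0.221 (0.117 to 0.449).

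**Figure D3:**
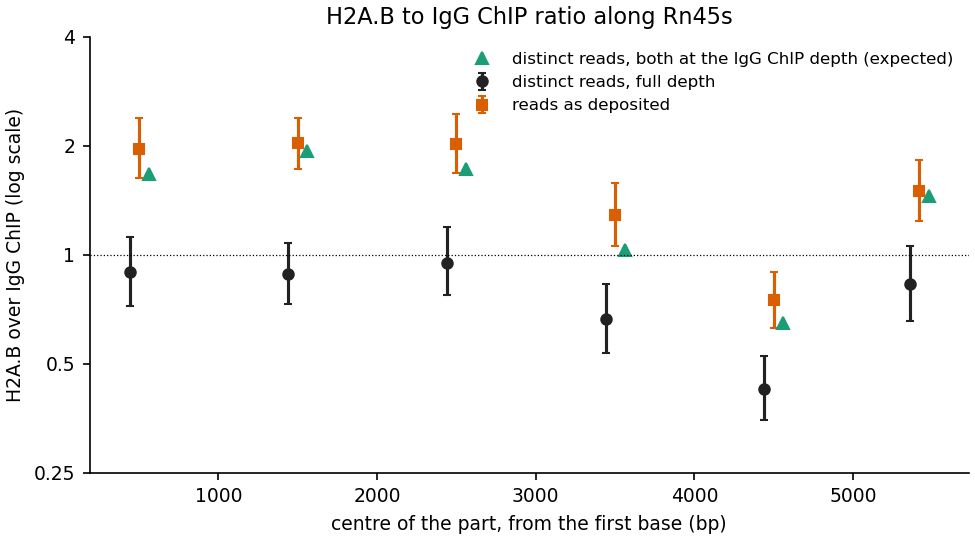
Ratio of H2A.B to IgG ChIP (log axis) in successive parts of 1000 bp, the last of 833 bp, plotted at the centre of each part; bars are 95% exact intervals, and the triangles are expectations at the depth of IgG ChIP. The part from 4001 to 5000 bp is lowest in all 3 settings, at 0.427, 0.749 and 0.647.

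The second comparison asked whether methylated DNA from the ribosomal gene was recovered above its IgG background. All 5mC libraries stood above IgG MeDIP, at 658 ± 388 CPM (SD, n = 3) against 96.7. The ratios were 10.1 (95% exact interval 5.78 to 19.7), 2.34 (1.33 to 4.57) and 7.94 (4.52 to 15.5) for replicates 1, 2 and 3, a mean of 6.81 ± 4.02 (SD, n = 3). As a fold over the flanks the mean ratio was 2.55 ± 1.79 (SD, n = 3; 1.12 to 4.56), with 1 flank read in IgG MeDIP. The exact permutation test of the 3 libraries against 1 gave p = 0.5, two-sided, which is the smallest value that this design allows. The IgG value rests on 12 reads, and the IgG MeDIP list also forms a block of the replicate 2 list, described below. The IgG libraries, single in each assay, also differed at Rn45s: IgG ChIP stood 11.1 times above IgG MeDIP (6.33 to 21.7). The ratio of 5mC replicate 1 was 10.1, and these intervals overlap. The IgG libraries differed in IgG species and lane too, so assay, species and lane cannot be told apart. Among libraries that shared a lane, 5mC replicate 3 stood at 0.713 times IgG ChIP (0.635 to 0.800) and 5mC replicate 2 at 2.34 times IgG MeDIP. 5mC replicate 1 stood at 1.19 times H2A.B (1.12 to 1.26) with distinct reads and at 0.376 times (0.359 to 0.394) with deposited reads.

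The value of 5mC replicate 2 came mainly from a small part of its list. That list consists of 4 blocks that are each sorted on their own, and block 3 is the IgG MeDIP list, which was left out. All 4 carry the same flow cell and lane. Blocks 1 and 2 held 2269446 and 1538401 reads, of which 133 and 89 lay in Rn45s, or 61.2 (95% exact interval 51.2 to 72.5) and 60.2 (48.4 to 74.1) deposited CPM, beside 72.4 in the IgG MeDIP block. Block 4 held 373112 reads, of which 291 lay in Rn45s, or 789 CPM (701 to 885). It gave 8.93% of the kept reads and 56.7% of those in Rn45s, and its share was 12.9 times that of block 1 (10.5 to 15.9). Without block 4, replicate 2 stood at 1.07 times IgG MeDIP (0.596 to 2.11) by distinct reads, and with the first block alone at 1.04 times (0.573 to 2.09), so its excess over the IgG library was no longer detectable at this depth. Which blocks belong to the labelled library is not given in the sources used here. Whether the IgG MeDIP list is a control apart from blocks 1 and 2 is not given either, and every 5mC ratio to IgG MeDIP rests on it.

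**Figure D4:**
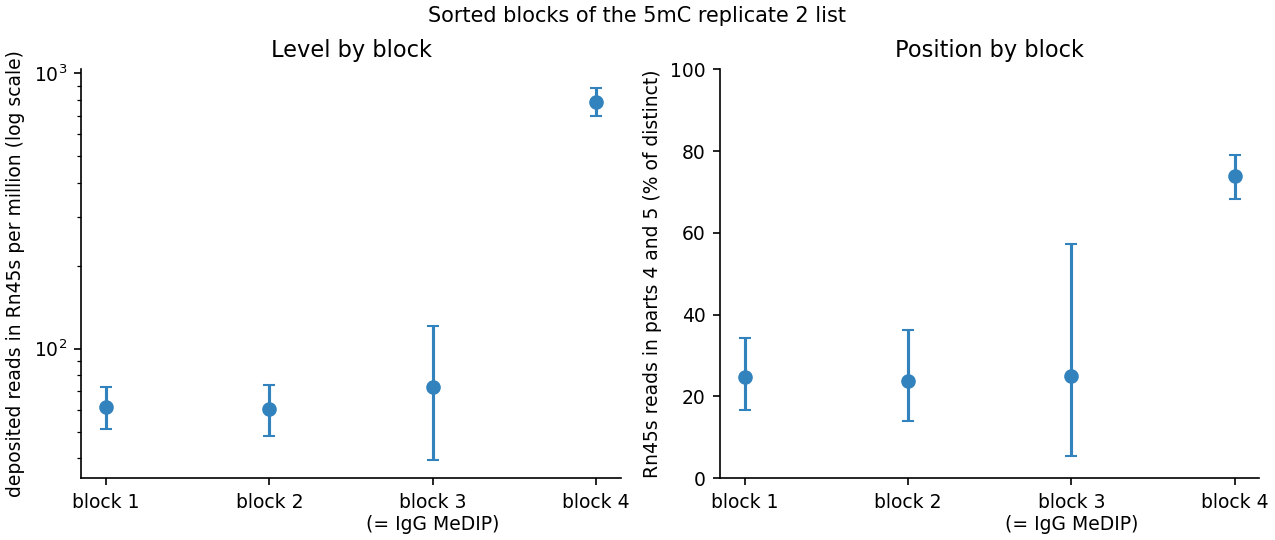
For the 4 sorted blocks of the 5mC replicate 2 list, deposited reads in Rn45s in CPM (left, log axis) and the percentage of the distinct Rn45s reads that lay from 3001 to 5000 bp (right, parts 4 and 5), with 95% exact intervals. Blocks 1 to 3 sit between 60.2 and 72.4 CPM and between 23.8% and 25.0%, and block 4 at 789 CPM and 73.9%.

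The profile along the copy took a different form in different libraries. H2A.B was densest from 1001 to 2000 bp, with 1494 distinct reads, and sparsest from 4001 to 5000 bp, with 727. 5mC replicate 1, from the same lane, had the same 2 extremes, with 353 and 95 reads. IgG ChIP was nearly even, with 91, 113, 94, 92 and 114 reads in the first 5 parts and 77 in the last 833 bp. 5mC replicate 3 rose from 71 reads in the first part to 133 in the second and stayed between 93 and 118 after that. 5mC replicate 2 went the other way from H2A.B, with 37, 54 and 41 reads in the first 3000 bp and 94 and 144 in the next 2000. Block 4 on its own had 10, 17 and 13 reads in the first 3000 bp and 80 and 124 in the next 2000.

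The stretch from 3001 to 5000 bp is 34.3% of the copy's length and shows these differences best. It was picked after the values had been seen. It held 24.7% (95% exact interval 23.7 to 25.8) of the distinct Rn45s reads in H2A.B and 18.9% (16.9 to 21.1) in 5mC replicate 1, the libraries with 42 bp reads. It held 32.7% (29.0 to 36.6) in 5mC replicate 3 and 35.5% (31.6 to 39.5) in IgG ChIP, which share another lane. In 5mC replicate 2 it held 55.5% (50.6 to 60.2), but 24.7% (18.3 to 32.1) without block 4. In IgG MeDIP it held 3 of 12 reads. Block 4 stepped up within the copy: it had 9 distinct reads from 2901 to 3400 bp and 66 from 3401 to 3900 bp. Across the same point H2A.B went down from 713 to 321 and 5mC replicate 1 from 137 to 53, while IgG ChIP had 52 and 48 and 5mC replicate 3 had 60 and 60. From 5201 bp to the end block 4 was sparse again, with at most 3 reads in a window.

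Comparing the last 2000 bp with the first gave a log2 ratio of -0.64 (95% exact interval -0.72 to -0.55) in H2A.B, -1.11 (-1.32 to -0.91) in 5mC replicate 1, 1.24 (0.88 to 1.61) in 5mC replicate 2, -0.03 (-0.32 to 0.26) in 5mC replicate 3 and 0.00 (-0.29 to 0.29) in IgG ChIP. The positive value of 5mC replicate 2 rests on block 4: without it the ends held 53 and 65 reads, a log2 ratio of -0.29 (-0.85 to 0.25). With ends of 1000 bp the values were -0.03 (-0.14 to 0.09) in H2A.B, -0.23 (-0.49 to 0.03) in 5mC replicate 1 and 0.84 (0.41 to 1.28) in 5mC replicate 3. The values of these libraries thus depend on how much of the copy is taken as its end. In IgG ChIP the value with ends of 1000 bp was 0.34 (-0.07 to 0.75), and its 2 intervals overlap. In IgG MeDIP the 2 ends held 2 and 5 reads and cannot be compared.

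The windows with the most reads lay at different places. In H2A.B they began at 1301, 201 and 1501 bp, with 184, 176 and 173 distinct reads of the 200 positions that a window offers, so these windows were nearly full. In 5mC replicate 1 they began at 1601, 1201 and 1701 bp, with 46, 44 and 42. In IgG ChIP they were 3 neighbours from 4701 to 5000 bp, with 22, 22 and 21, and in 5mC replicate 3 they began at 4801, 1101 and 2901 bp, with 27, 22 and 22. In 5mC replicate 2 they began at 3401, 4901 and 4801 bp, with 29, 29 and 26. These windows belong to block 4, which had 25, 28 and 24 reads there, against 1 or 2 in each of blocks 1 and 2. Without block 4 no window of replicate 2 had more than 8 reads, and that one began at 1201 bp. No window was empty in H2A.B, IgG ChIP or 5mC replicates 1 and 3, while 3 were empty in 5mC replicate 2 and 47 of 59 in IgG MeDIP.

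Over the 58 full windows, the distinct reads of H2A.B and 5mC replicate 1 correlated at Pearson's r 0.810 (Spearman's rho 0.796), the highest of all pairs. The next was 5mC replicate 3 with IgG ChIP, at 0.639 (0.572). Both pairs share a lane. The remaining pair that shares a lane, 5mC replicate 2 with IgG MeDIP, stood at 0.0355 (-0.106), with 12 reads in IgG MeDIP. H2A.B correlated with IgG ChIP at 0.458 (0.494), and 5mC replicate 1 with replicates 2 and 3 at -0.340 (-0.337) and 0.380 (0.396). Block 4 of replicate 2 correlated with 5mC replicate 1 at -0.446 (-0.508), while replicate 2 without that block correlated with it at 0.296 (0.25), and blocks 1 and 2 on their own at 0.223 (0.223) and 0.221 (0.186). Windows of one copy share their library, sequence and mappability and are not replicates, so these values are a description.

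**Figure D5:**
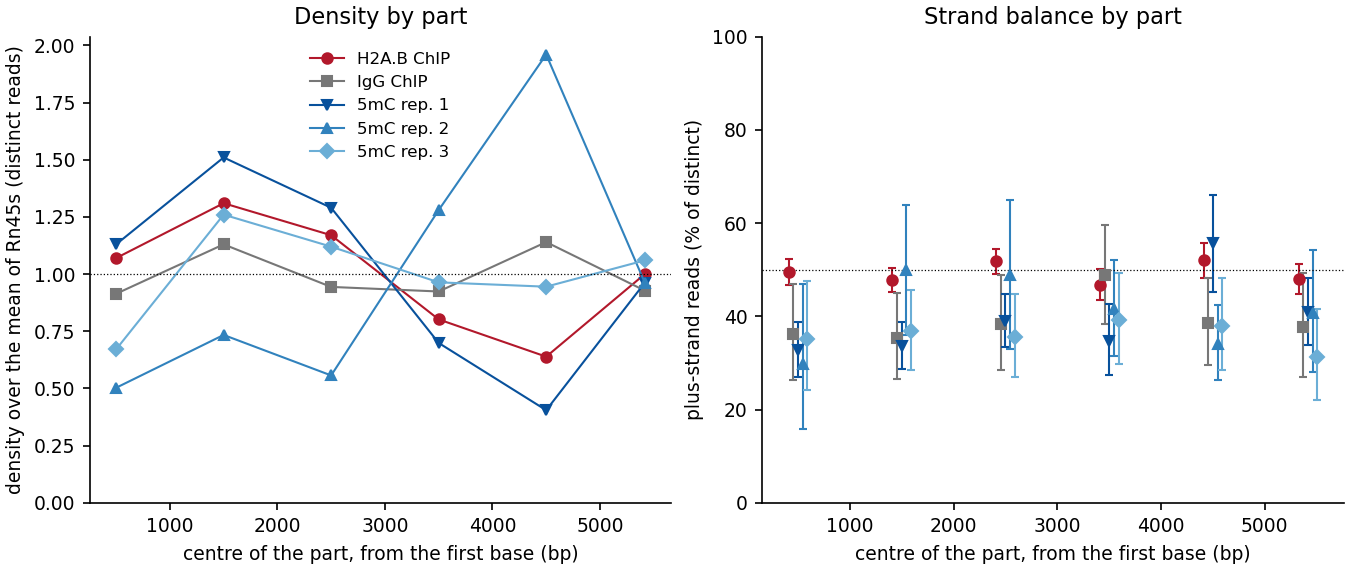
Left, density of distinct reads in successive parts of 1000 bp (the last of 833 bp) relative to the mean of Rn45s in the same library; right, the percentage of distinct reads on the plus strand in the same parts, with 95% exact intervals and points set side by side for legibility. H2A.B and 5mC replicate 1 fall to 0.639 and 0.405 of their mean from 4001 to 5000 bp where 5mC replicate 2, which includes block 4, rises to 1.96, and H2A.B stays between 46.8% and 52.0% plus-strand reads.

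The plus-strand share in Rn45s, taken without regard to the rest of the chromosome, was higher in H2A.B than in the other deep libraries. Of its distinct reads in Rn45s 49.3% (95% exact interval 48.1 to 50.5) were on the plus strand, and in the 6 successive parts the value lay between 46.8% and 52.0%. The 5mC libraries had 37.4% (34.8 to 40.0), 39.6% (35.0 to 44.4) and 36.1% (32.3 to 40.1), a mean of 37.7% ± 1.77 (SD, n = 3). Within replicate 2 the share was 34.7% (25.5 to 44.8) in block 1, 50.8% (37.9 to 63.6) in block 2 and 38.4% (32.6 to 44.4) in block 4. These block intervals overlap, and without block 4 replicate 2 had 40.7%. IgG ChIP had 39.1% (35.1 to 43.2), and IgG MeDIP had 4 of its 12 reads on the plus strand. With deposited reads the H2A.B share was 47.2% (46.3 to 48.0), against 34.5% to 37.2% in IgG ChIP and the 5mC libraries.

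The rest of chromosome 17 was not evenly split either. Outside Rn45s the plus strand held 52.7% of distinct reads in H2A.B and 54.9% in 5mC replicate 1, the 42 bp libraries, and 44.8% to 45.8% in the 4 libraries with 50 bp reads. The share in Rn45s minus that value was -3.4 percentage points in H2A.B and -17.5 in 5mC replicate 1, its lane mate. It was -8.7 in 5mC replicate 3 and -6.7 in IgG ChIP, which share a lane, and -5.4 in 5mC replicate 2 and -12.0 in IgG MeDIP, which share the other. The Rn45s share was thus the lower one in all 6 libraries, although the IgG MeDIP interval (9.92 to 65.1) includes the chromosome's value and that of 5mC replicate 2 (35.0 to 44.4) comes close to the chromosome value. With deposited reads H2A.B had 47.2% in Rn45s and 52.7% on the rest of the chromosome, and 5mC replicate 2 had 37.2% and 41.4%. The values were 35.4% and 55.1% in 5mC replicate 1, 34.8% and 44.6% in replicate 3, and 34.5% and 44.7% in IgG ChIP. Beside the rest of the chromosome, H2A.B was thus not set apart from 5mC replicate 2. The flanks, with 20 to 32 distinct reads in IgG ChIP and the 5mC libraries, were too thin to compare there. In H2A.B 61.9% (55.0 to 68.4) of the 215 flank reads were on the plus strand. Within 5mC replicate 1 the part from 4001 to 5000 bp, picked after the values had been seen, had 55.8% (45.2 to 66.0) against 32.7% to 41% elsewhere, and its interval overlaps that of the last part (33.9 to 48.3).

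Rn45s differed from the large satellite read piles in its share of the reads and in its ratios to the IgG libraries. The pile on chromosome 2, 98500001 to 98510000, held 6.78% to 27.9% of the deposited 5mC reads and that on chromosome 9, 3000001 to 3040000, held 8.93% to 16.6%, against 0.0128% to 0.0599% for Rn45s. For replicates 1, 2 and 3 the deposited 5mC to IgG MeDIP ratio was 1.87, 0.959 and 0.455 at the first pile and 1.09, 0.972 and 0.584 at the second, and 7.92 (95% exact interval 4.71 to 14.5), 1.76 (1.04 to 3.25) and 8.27 (4.90 to 15.2) at Rn45s. Each replicate was thus higher against IgG MeDIP at Rn45s than at either pile. For replicate 2 this rests on block 4, without which Rn45s stood at 60.8 deposited CPM against 72.4 in IgG MeDIP. For H2A.B against IgG ChIP the deposited ratio was 0.751 (0.744 to 0.758) and 0.510 (0.506 to 0.515) at the piles and 0.138 (0.130 to 0.146) on the mitochondrial genome, all below its value of 1.59 at Rn45s. These intervals do not overlap, and they cover counting error between single libraries only. The plus-strand share of distinct reads was highest in H2A.B at both piles, as at Rn45s. On chromosome 2 it was 50.2% in H2A.B and 40.8% to 48.5% in the other libraries. On chromosome 9 it was 45.3% in H2A.B and 8.39% to 27.5% in the others.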

How the data were processed

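Each deposited file lists aligned reads (chromosome, start, end, name, score, strand). The score that the authors deposited has the same value in every row and enters no result. The submitters' processing notes name Bowtie, FastQC and mm9, and the treatment of reads with several matches is not given in the sources used here. Start and end positions are other values taken as deposited. Each read name occurred once, except 2 repeats in 5mC replicate 2. Left out were 1 malformed line of H2A.B and 8 of 5mC replicate 1, the 201263 reads of 5mC replicate 2 that also form IgG MeDIP, and 2691 further reads there without strand.

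Reads were assigned by their 5′ end and counted once per position and strand, with all reads as an alternative, and divided by the library total on chromosomes 1 to 19, X and Y. Intervals are exact Clopper-Pearson intervals at 95%. Tiles needed 10 distinct reads in H2A.B and IgG ChIP together. On simulated counts the size rule recovered 5.00% of tiles raised 2-fold and 35.0% raised 4-fold, among 359571 tiles at their own low depths. It called 1.26% of unchanged tiles, 4468 as higher in IgG ChIP and 52 as higher in H2A.B. Named windows are the 3 with most reads per library and the 3 highest and lowest by ratio among those with at least 10 reads. Python 3.11.15, numpy 2.4.6 and scipy 1.17.1 were used. The region, settings and comparisons were chosen with earlier results of these data known.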

Additional observations from a re-analysis of the deposited data

How the results depend on the processing

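H2A.B against IgG ChIP at Rn45s, 0.765 with distinct reads, turned to 1.59 with deposited reads and 1.46 at equal depth. As a fold over the flanks it was 1.06, which rests on 20 IgG ChIP flank reads and cannot be told from 1. Alternatives added after seeing the data gave 1.40 at the depth of IgG ChIP and 1.82 as a fold over the flanks with deposited reads. The latter rests on 22 IgG ChIP flank reads. Leaving block 4 out of 5mC replicate 2, also added then, gave 103 CPM, a fold of 162 over the flanks and a log2 ratio of the ends of -0.29 in place of 1.24. With chromosome 17 as the total the H2A.B to IgG ChIP ratio was 0.659. Deposited reads moved the CPM to 1525 (H2A.B), 573, 128 and 599 (5mC replicates 1 to 3) and 957 (IgG ChIP), and equal depth to 1570 (H2A.B) and 182 (5mC replicate 2). The H2A.B fold over the flanks moved to 1506 with deposited reads and 1477 at equal depth. The mean 5mC to IgG MeDIP ratio of 6.81 became 2.55 as a fold over the flanks, where IgG MeDIP has 1 read, and 5.14 to 9.04 with 1 replicate left out. The log2 ratio of the 2 ends became -1.01 (deposited) and -1.0 (equal depth) in H2A.B, and with ends of 1000 bp -0.03 in H2A.B, -0.23, 0.84 and 0.34 in 5mC replicates 1 and 3 and IgG ChIP. With deposited reads the plus-strand share was 47.2% in H2A.B and 34.5% in IgG ChIP, and 2388 and 17680 tiles were called higher in H2A.B and in IgG ChIP (320 and 7141 with distinct reads). With at least 20 reads, 2490 were called higher in IgG ChIP. The causes were not tested, except that a fold on 1 flank read is set by that read. The left flank alone gave no value in IgG MeDIP, which has no read there. No paired analysis was possible because the 5mC libraries alone carry replicate numbers.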

Other observations

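Tiles of the same length were also ranked by how their level varied over the 6 libraries, as the root mean square difference from Rn45s of log2 CPM of deposited reads, each tile centred on its own mean. Among 89 tiles with at least 20 deposited reads in every library, a minimum that Rn45s itself missed with 14 in IgG MeDIP, the closest lay on chromosome X, 139916731 to 139922563, at 1.21, and chromosome 6, 103594640 to 103600472, at 1.5, against a median of 2.64. The tile on chromosome X stood at 306 CPM in H2A.B, 610 in IgG ChIP, 369, 206 and 554 in 5mC replicates 1, 2 and 3 and 212 in IgG MeDIP. The next 3 tiles, on chromosomes 4, 2 and 14, stood at 1.86, 1.94 and 2.06. The minimum left out every tile with as few IgG MeDIP reads as Rn45s. Whether a tile outside these 89 followed the pattern of Rn45s more closely was therefore not tested.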
